A study of Homo sapiens with 12 samples.

Results

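Selenoproteins carry selenocysteine, an amino acid that ribosomes insert at a UGA codon, which elsewhere ends translation. The 10 selenoprotein genes described here are SELM, SELT, SELK, SEP15, SEPW1, GPX1, GPX4, TXNRD1, TXNRD2 and SEPHS2, found by symbol among the 25369 genes of the deposited tables. All 10 passed the filter on low values and were among the 14627 genes tested. The genes were chosen by a measured value, because SELM was among the genes lowest in RNA purified with the TNIP2 fragment. The level of SELM in that RNA is therefore given as a description with no test. The other 9 genes are members of the same family. The list was chosen with earlier results of these data known, so their p-values may not be free of that choice.

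RNA was sequenced from HEK293T cells, a human embryonic kidney line used widely for transfection, which the growth conditions name as HEK293. Cells of both Control groups were transfected with a plasmid for the Halo tag alone, a protein tag that binds covalently to a resin. Cells of both TNIP2 groups made the tag joined to TNIP2 from residue 196 to residue 346. TNIP2 binds ubiquitin and restrains NF-kB signalling, and the bait was a fragment and not the whole protein. Input libraries hold total RNA from 100 µl of whole cell extract, and Pulldown libraries hold RNA from 90 µl of material purified through the tag, each after removal of ribosomal RNA. Each of the 4 groups (Control Input, Control Pulldown, TNIP2 Input and TNIP2 Pulldown) had 3 libraries, with no time point or drug given. Nothing in the labels says that replicates were separate transfections, and a p-value here reflects only how far these libraries differed from each other, which can be technical.

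The selenocysteine codon is read with help from a hairpin in the 3′ untranslated region of the message, the SECIS element, and from proteins that bind it. SECISBP2 binds the hairpin, EEFSEC brings the selenocysteine tRNA to the ribosome, and SEPHS2 makes the selenophosphate from which selenocysteine is built. SELM, SELT, SELK and SEP15 are proteins of the endoplasmic reticulum. GPX1 and GPX4 are glutathione peroxidases, TXNRD1 and TXNRD2 are thioredoxin reductases, and SEPW1 is a small cytosolic protein with a thioredoxin fold.

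Control Pulldown libraries were the shallowest, with 3591207 to 6404866 recovered reads each. Depth reached 13793765 to 20791763 reads for Control Input, 8898705 to 16759561 for TNIP2 Input and 10313392 to 29529401 for TNIP2 Pulldown. TNIP2 itself had 278, 304 and 272 normalized counts in Control Input and 1472, 309 and 391 in Control Pulldown, against 13318 or more in each of the 6 libraries labelled with the fragment. The HEK293 markers VIM, KRT8, KRT18, CDH2, EYA1 and NEFM had 71 or more normalized counts in every library, but PAX2 had only 2 to 22. CD3E and HBB were at 0 in every library, PTPRC, COL1A2 and PECAM1 had at most 9, and ALB reached 33 in TNIP2 Pulldown replicate 3. TNIP2 Input replicate 3 and TNIP2 Pulldown replicate 3 had scores of 54.7 and 47.8 on the second principal component, against 2.84 or less in the other 10 libraries. In bulk RNA, fewer cells that express a gene and less RNA per cell cannot be told apart, and a normalized count is a level relative to the other genes of its library.

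Among SELM, SELT, SELK and SEP15, all of the endoplasmic reticulum, SELM was lowest and SELK highest in RNA purified with the TNIP2 fragment. SELM, a thioredoxin-like protein of the lumen, had 38, 26 and 47 normalized counts in TNIP2 Pulldown. It had 576, 548 and 465 in Control Pulldown, while TNIP2 Input had 451, 361 and 488 and Control Input had 508, 400 and 356. The 3 TNIP2 Pulldown libraries lay far below the other 9, which overlapped among themselves. The ratio of group means was 14.3 for Control Pulldown over TNIP2 Pulldown and 11.7 for TNIP2 Input over TNIP2 Pulldown, and the fitted log2 fold changes were -3.84 (SE 0.22) against Control Pulldown and -3.54 (SE 0.22) against TNIP2 Input. These values chose the family. Of the 14627 genes tested, SELM was the 8th lowest against Control Pulldown and the 24th lowest against TNIP2 Input. The low level rested on 40, 51 and 38 recovered reads.

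SELK, a membrane protein that takes part in protein palmitoylation and in the disposal of misfolded proteins, had 4956, 4413 and 4407 normalized counts in TNIP2 Pulldown. It had 848, 928 and 732 in Control Pulldown, while TNIP2 Input had 777, 627 and 1127 and Control Input had 866, 765 and 736. The 3 TNIP2 Pulldown libraries lay above all others, with no overlap. Over Control Pulldown the ratio of means was 5.49 and the log2 fold change 2.46 (SE 0.19, adjusted p = 9.0e-08). Over TNIP2 Input the ratio of means was 5.44 and the log2 fold change 2.48 (SE 0.19, adjusted p = 9.3e-08). Of the 14627 genes tested, SELK was the 315th highest over Control Pulldown and the 226th highest over TNIP2 Input. It was the only one of the 9 other genes called higher in these comparisons.

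SEP15, which works with the enzyme that checks glycoprotein folding, fell in TNIP2 Pulldown. Its normalized counts were 837, 679 and 558 there, 2586, 2594 and 2010 in Control Pulldown, while TNIP2 Input had 2876, 2327 and 2564. No TNIP2 Pulldown library overlapped another group, and the log2 fold change was -1.80 (SE 0.17, adjusted p = 5.2e-07) over Control Pulldown and -1.92 (SE 0.17, adjusted p = 3.2e-07) over TNIP2 Input. SELT, a membrane-anchored oxidoreductase, had 782, 426 and 506 in TNIP2 Pulldown, 1441, 1349 and 1419 in Control Pulldown, while TNIP2 Input had 1397, 1124 and 1852. It fell by 1.34 on the log2 scale (SE 0.21, adjusted p = 8.3e-05) from Control Pulldown and by 1.37 (SE 0.21, adjusted p = 7.3e-05) from TNIP2 Input, again with no overlap.

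**Figure D1:**
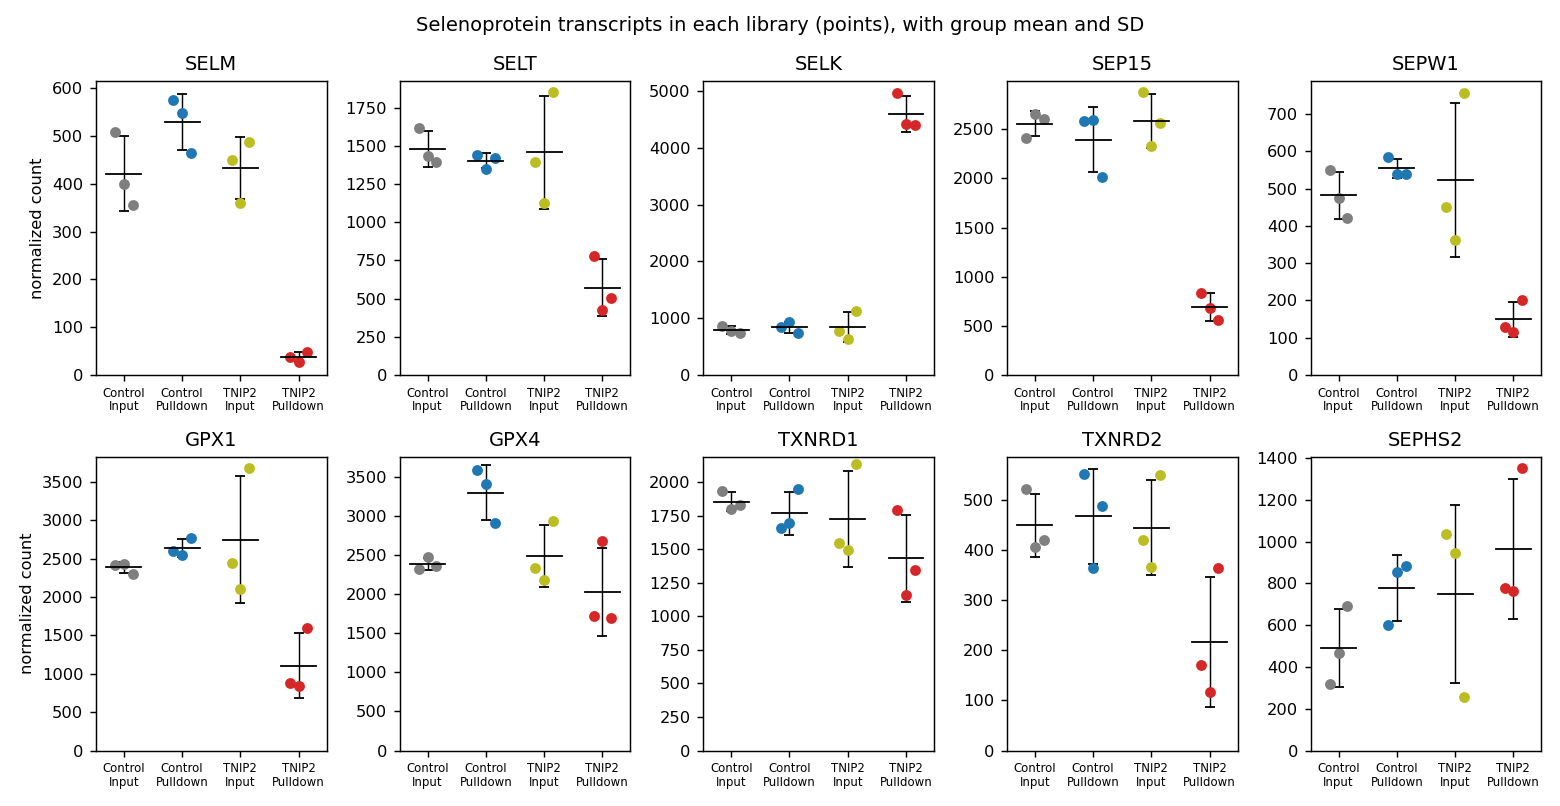
Normalized counts (y axis, from 0) of the 10 selenoprotein genes in each library (points, 3 per group); the horizontal bar is the group mean and the whisker the SD. SELM lies between 26 and 47 in TNIP2 Pulldown and at 356 or more elsewhere, while SELK lies at 4407 or more in TNIP2 Pulldown and at 1127 or less elsewhere.

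SEPW1, the cytosolic thioredoxin-fold protein, fell in TNIP2 Pulldown. It had 129, 116 and 202 normalized counts in TNIP2 Pulldown, 584, 540 and 538 in Control Pulldown, while TNIP2 Input had 450, 361 and 756. It fell by 1.93 on the log2 scale (SE 0.25, adjusted p = 1.3e-05) from Control Pulldown and by 1.77 (SE 0.25, adjusted p = 3.0e-05) from TNIP2 Input. All 3 TNIP2 Pulldown libraries lay below every other library.

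Both glutathione peroxidases fell from Control Pulldown to TNIP2 Pulldown. GPX1, which reduces hydrogen peroxide, had 879, 845 and 1596 normalized counts in TNIP2 Pulldown, 2595, 2551 and 2768 in Control Pulldown, while TNIP2 Input had 2445, 2107 and 3677. It fell by 1.32 on the log2 scale (SE 0.23, adjusted p = 2.0e-04) from Control Pulldown and by 1.33 (SE 0.23, adjusted p = 1.9e-04) from TNIP2 Input. Replicate 3 was the high library of both TNIP2 groups, and the groups still did not overlap. GPX4, which reduces lipid peroxides in membranes and guards against ferroptosis, had 1714, 2673 and 1694 in TNIP2 Pulldown against 3580, 3401 and 2902 in Control Pulldown. It fell by 0.73 on the log2 scale (SE 0.18, adjusted p = 0.0032) from Control Pulldown. Against TNIP2 Input (2338, 2178 and 2930) the libraries overlapped, and a value of -0.31 (log2, SE 0.18, adjusted p = 0.16) did not pass. That value was called lower without TNIP2 Pulldown replicate 2 (-0.53, adjusted p = 0.012), at -0.78 (adjusted p = 5.7e-04) after quantile normalization, and at -0.84 (adjusted p = 0.0013) when libraries were centred on ribosomal protein genes. Those scalings also gave -1.21 in both cases over Control Pulldown.

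Of the thioredoxin reductases TXNRD2 fell and TXNRD1 did not pass, and the difference between them was not tested. TXNRD2, the mitochondrial enzyme, had 170, 117 and 363 normalized counts in TNIP2 Pulldown, 550, 364 and 487 in Control Pulldown, while TNIP2 Input had 420, 365 and 548. It fell by 1.25 on the log2 scale (SE 0.32, adjusted p = 0.0033) from Control Pulldown and by 1.18 (SE 0.32, adjusted p = 0.0051) from TNIP2 Input. Its libraries did not overlap, but replicate 3 of TNIP2 Pulldown, at 363, lay only 1 count below the lowest Control Pulldown library. TXNRD1, the cytosolic enzyme, whose gene overlaps EID3 in the RefSeq annotation so that reads in shared sequence are uncertain, had 1791, 1160 and 1348 in TNIP2 Pulldown, 1658, 1695 and 1950 in Control Pulldown, while TNIP2 Input had 1546, 1494 and 2137. The groups overlapped, and the log2 fold changes of -0.32 (SE 0.18, adjusted p = 0.14) and -0.27 (SE 0.18, adjusted p = 0.21) did not pass. Without TNIP2 Pulldown replicate 1 they were -0.50 (adjusted p = 0.027) and -0.44 (adjusted p = 0.045). TXNRD1 was also called lower with quantile normalization (-0.67 and -0.61) and under centring on ribosomal protein genes (-0.80 in both comparisons).

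SEPHS2, the synthetase that feeds the pathway, had the largest standard errors of the 10 genes in the fit. Its normalized counts were 780, 766 and 1352 in TNIP2 Pulldown, 599, 856 and 886 in Control Pulldown, while TNIP2 Input had 1036, 948 and 258 and Control Input had 318, 467 and 690. TNIP2 Pulldown overlapped Control Pulldown and TNIP2 Input, and lay above Control Input. The log2 fold change was 0.28 (SE 0.43, adjusted p = 0.60) over Control Pulldown and 0.56 (SE 0.43, adjusted p = 0.28) over TNIP2 Input. The first value changed sign under centring on ribosomal protein genes (-0.20). The second changed sign without TNIP2 Input replicate 3 (-0.09, adjusted p = 0.82), the library with 258.

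Counted together, 6 of the 9 genes other than SELM were called lower and 1 higher in TNIP2 Pulldown over Control Pulldown, where 28.7% of all genes tested were called lower and 30.6% higher, or 59.4% in either direction. Over TNIP2 Input, 5 were lower and 1 higher, where 28.3% of all genes were lower and 29.8% higher (58.1% in either direction). The median log2 fold change of the 9 genes was -1.25 over Control Pulldown and -1.18 over TNIP2 Input, beside 0.03 and 0.01 for all genes tested. The TNIP2 Pulldown libraries lay wholly below Control Pulldown for 6 of the 9 and wholly above for 1, as they did for 29.5% and 31.5% of all genes. Over TNIP2 Input these were 5 and 1, beside 28.1% and 29.4% of all genes. Both comparisons use the same TNIP2 Pulldown libraries, and SELM's level in them chose the family, so nothing is read from these counts about selenoproteins as a class. Centring the libraries on ribosomal protein genes moved the median of all genes from 0.03 to -0.45 over Control Pulldown and from 0.01 to -0.52 over TNIP2 Input. The genes called then split into 6138 lower and 2581 higher over Control Pulldown, in place of 4201 and 4481, and into 6443 and 2317 over TNIP2 Input, in place of 4145 and 4358. None of the 7 genes called over Control Pulldown changed direction or lost its call under any of the 23 alternatives.

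**Figure D2:**
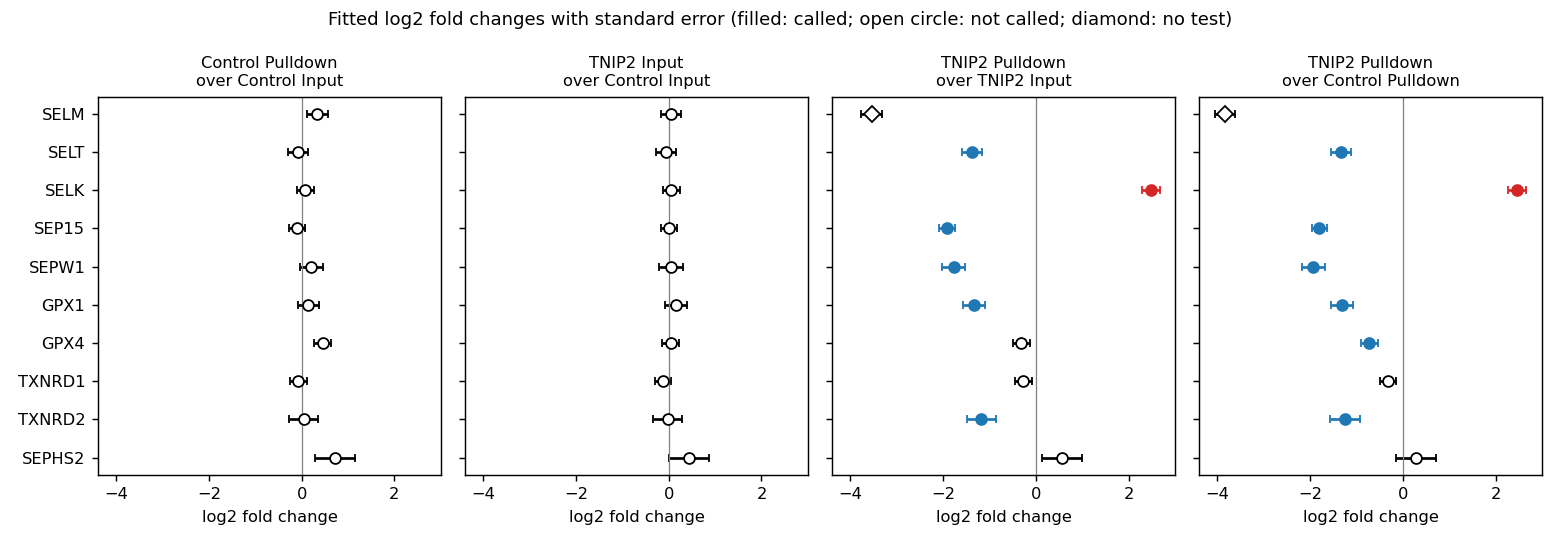
Log2 fold change (x axis) of the 10 genes (y axis) in 4 comparisons, with the standard error of the limma fit as whiskers; filled red is called higher, filled blue called lower, an open circle not called and a diamond not tested. In both left panels all 10 genes are uncalled, with values from -0.12 to 0.71, and in the right panels SELK stands at 2.48 and 2.46 while SELM stands at -3.54 and -3.84.

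Control Pulldown over Control Input addresses what the resin and the bare tag carry. Of the 10 genes, 0 were called in Control Pulldown over Control Input, where limma called 0.137% of all genes, and 342 of the 14627 had an unadjusted p under 0.05. Their log2 fold changes ran from -0.10 to 0.71, with a median of 0.11 beside -0.01 for all genes. SELM had 0.34 (SE 0.22, adjusted p = 1.0) and SELK 0.08 (SE 0.19, adjusted p = 1.0). GPX4 had an unadjusted p under 0.05 (0.0248), at 0.46 on the log2 scale (SE 0.18, adjusted p = 1.0). Its Control Pulldown libraries lay above its Control Input libraries (2326, 2474 and 2363), and those of GPX1 also lay above theirs. The share of all genes that did so was not computed, so nothing is read from this separation. By voom on recovered reads also, 0 members were called.

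TNIP2 Input over Control Input addresses whether the cells' RNA differed with the transfected fragment. Again 0 of the 10 genes were called in TNIP2 Input over Control Input, where 0.00684% of all genes were called and 104 genes had an unadjusted p under 0.05; voom likewise called 0 members. Fold changes ran from -0.12 for TXNRD1 to 0.43 for SEPHS2 on the log2 scale, with a median of 0.04 beside -0.01 for all genes. For SELM it was 0.04 (SE 0.22, adjusted p = 1.0) and for SELK 0.06 (SE 0.19, adjusted p = 1.0).

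The difference of enrichments takes the Pulldown-over-Input log2 fold change with the fragment and subtracts the one with the bare tag. It used the libraries that chose the family, and 42.8% of all genes were called in it, 20.2% lower and 22.6% higher. Of the 9 genes other than SELM, 6 were lower and 1 higher. SELK had 2.40 (SE 0.27, adjusted p = 1.1e-05), SEPW1 -1.98 (SE 0.36, adjusted p = 5.1e-04) and SEP15 -1.81 (SE 0.24, adjusted p = 4.2e-05). GPX1 had -1.48 (SE 0.33, adjusted p = 0.0023) and SELT -1.29 (SE 0.30, adjusted p = 0.0033). The calls of TXNRD2 (-1.22, SE 0.45, adjusted p = 0.039) and GPX4 (-0.77, SE 0.26, adjusted p = 0.026) depended on single libraries and on other settings. TXNRD2 lost its call without any one of 8 libraries (Control Input 2 or 3, Control Pulldown 1 or 3, TNIP2 Input 1 or 3, TNIP2 Pulldown 1 or 2), and stood at -0.86 (adjusted p = 0.099) without TNIP2 Pulldown replicate 2. It also lost the call after quantile normalization (-1.11, adjusted p = 0.054) and with no filter on low values (-1.22, adjusted p = 0.065). GPX4 lost it without any one of 6 (Control Input 1 or 3, Control Pulldown 1 or 2, TNIP2 Input 3, TNIP2 Pulldown 1), and stood at -0.71 (adjusted p = 0.065) without Control Pulldown replicate 1. It lost it too without both TNIP2 libraries numbered 3 (-0.54, adjusted p = 0.056). SEPHS2 had -0.16 (SE 0.61, adjusted p = 0.86), but -1.07 (adjusted p = 0.018) without both TNIP2 libraries numbered 3.

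Levels can be compared between genes only per transcript length, as FPKM (fragments per kilobase of transcript, here scaled between libraries as the normalized counts are). In Control Input the order by mean FPKM was GPX1 (177 ± 5.29, SD, n = 3), GPX4 (171 ± 5.49), SEP15 (122 ± 6.16), SELK (84.8 ± 7.30), SELM (53.6 ± 9.96), SEPW1 (48.1 ± 6.37), SELT (37.3 ± 2.99), TXNRD1 (35.3 ± 1.36), SEPHS2 (18.4 ± 7.01) and TXNRD2 (12.9 ± 1.81). The libraries of GPX1 and GPX4, of SELM and SEPW1, of SELT and TXNRD1 and of SEPHS2 and TXNRD2 overlapped, so these neighbours were not separated. Control Pulldown and TNIP2 Input kept this order, except that GPX4 (235 ± 25.1) stood above GPX1 (196 ± 8.53) in Control Pulldown. SEP15 and SELK, SELT and TXNRD1, and TXNRD1 and SEPHS2 overlapped in Control Pulldown, and in TNIP2 Input all neighbours overlapped except GPX4 and SEP15, and SELK and SELM. In TNIP2 Pulldown SELK led with 493 ± 33.8 FPKM, followed by GPX4 (145, libraries from 121 to 191), GPX1 (82.2 ± 31.5), SEPHS2 (36.1 ± 12.5), SEP15 (33.0 ± 6.69), TXNRD1 (27.3 ± 6.17), SEPW1 (14.9 ± 4.63), SELT (14.4 ± 4.71), TXNRD2 (6.22 ± 3.71) and SELM (4.70 ± 1.31). The libraries of SEPHS2 and SEP15, SEP15 and TXNRD1, SEPW1 and SELT, and TXNRD2 and SELM overlapped there.

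SELK made up 36.5% to 41.0% of the summed normalized counts of the 10 genes in TNIP2 Pulldown and 5.17% to 6.90% in the other 9 libraries. SELM made up 0.232% to 0.389% and 2.71% to 3.84%. The sum itself was 12076, 11221 and 12073 in TNIP2 Pulldown, within or just below the range of 11892 to 16337 in the other libraries.

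**Figure D3:**
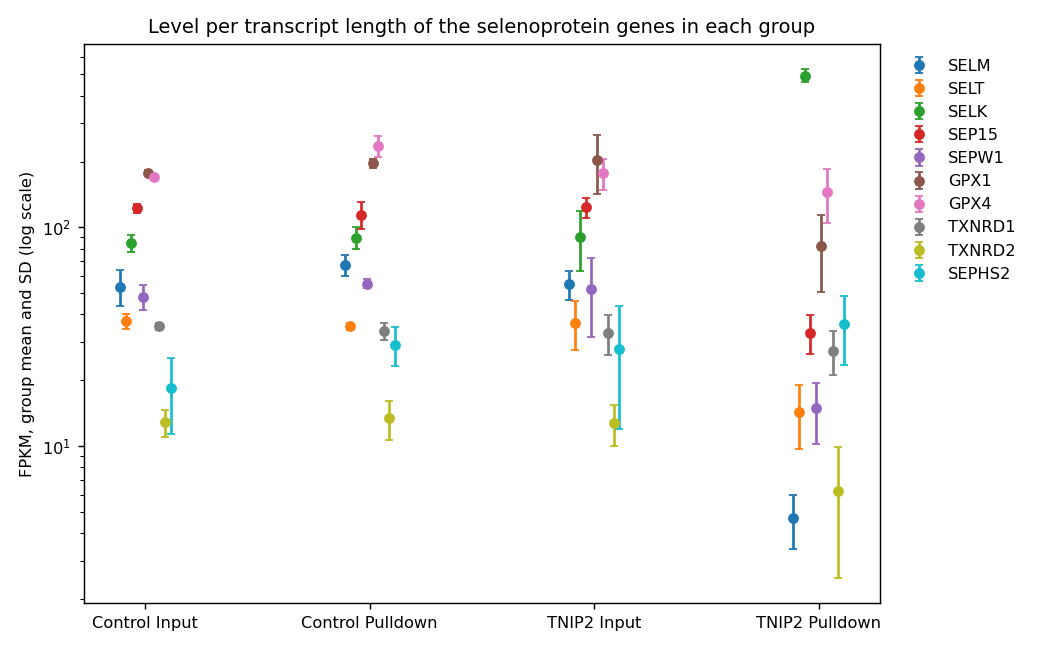
Mean FPKM (y axis, log scale) of the 10 genes in each group, with the SD of 3 libraries as whiskers. SELK is 4th in the order of the 3 left groups and 1st in TNIP2 Pulldown at 493 FPKM, and SELM moves from 5th to last at 4.70 FPKM.

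Of the 25 human selenoprotein genes listed, the other 15 were all in the tables and 9 passed the filter on low values. Over Control Pulldown 5 of these 9 were lower and 1 higher in TNIP2 Pulldown, with a median log2 fold change of -0.88, where 28.7% of all genes tested were lower and 30.6% higher (59.4% in either direction), with a median of 0.03. Over TNIP2 Input, 5 were lower and 1 higher, with a median of -0.62. There 28.3% of all genes were lower and 29.8% higher (58.1% in either direction), with a median of 0.01. Both comparisons use the same TNIP2 Pulldown libraries. MSRB1, a methionine sulfoxide reductase, had 19, 25 and 53 normalized counts in TNIP2 Pulldown against 183, 168 and 177 in Control Pulldown, which is -2.54 on the log2 scale (SE 0.31, adjusted p = 6.0e-06). GPX3, a secreted peroxidase, had 29, 14 and 38 against 109, 139 and 116 (-2.23, SE 0.29, adjusted p = 1.4e-05). In both genes no TNIP2 Pulldown library reached another group. Against Control Pulldown, 29.5% of all genes tested lay wholly below.

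SELO, a mitochondrial protein, stood at -1.20 on the log2 scale (SE 0.33, adjusted p = 0.0057) over Control Pulldown. It had 127, 103 and 265 normalized counts in TNIP2 Pulldown against 384, 271 and 409, so replicate 3 lay just below the lowest Control Pulldown library. SEPN1, a protein of the endoplasmic reticulum, had -1.03 (SE 0.19, adjusted p = 2.6e-04). EPT1, a phospholipid-synthesis enzyme also called SELI, had -0.88 (SE 0.23, adjusted p = 0.0039). C11orf31, also called SELH, a nuclear redox protein, was the gene called higher, with 2499, 2232 and 2092 normalized counts against 1326, 1460 and 1376 (0.71, SE 0.16, adjusted p = 0.0014), and this call ended under centring on ribosomal protein genes and with quantile normalization. VIMP, a partner of SELK in the disposal of misfolded proteins, had 1260, 990 and 844 against 1060, 875 and 859, which is 0.13 on the log2 scale (SE 0.17, adjusted p = 0.53). SEPP1 (-0.06, SE 0.25) and TXNRD3 (-0.04, SE 0.17) also did not pass. SELV, GPX2, GPX6, DIO1, DIO2 and DIO3 had at most 9 normalized counts in any library and were not tested.

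Exonic length, recovered from the deposited values, is a property that the choice of genes did not use. It was 691 bases for SELM, 818 for SELK, 880 for SEPW1, 1183 for GPX1, 1231 for GPX4, 1840 for SEP15, 2351 for SEPHS2, 3062 for TXNRD2, 3490 for SELT and 4610 for TXNRD1. SELM and SELK, with the lowest and highest fold changes of the 10, were the shortest 2. Over all 14627 genes the Spearman correlation of length with the log2 fold change of TNIP2 Pulldown over Control Pulldown was 0.18, as a description across genes that share the same libraries. For Control Pulldown over Control Input, with the bare tag, it was 0.19. Of the 902 genes under 1000 bases, 36.6% were called lower and 28.6% higher over Control Pulldown in TNIP2 Pulldown, with a median log2 fold change of -0.15. The 2643 genes of 1000 to 2000 bases had a lower median, -0.22, with 37.8% lower and 25.3% higher. Of the 5703 genes of 2000 to 4000 bases, 31.2% were lower and 26.5% higher, with a median of -0.09. Of the 5379 genes of 4000 bases or more, 20.3% were lower and 37.9% higher, with a median of 0.25. The part of length in the members' values was not tested.

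**Figure D4:**
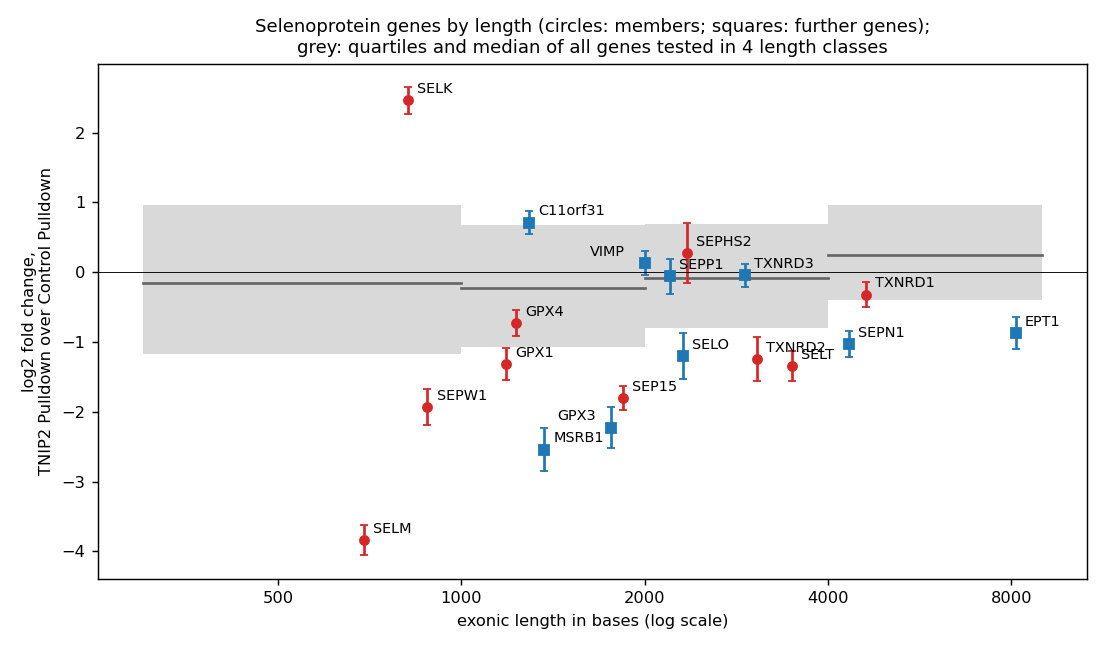
Log2 fold change of TNIP2 Pulldown over Control Pulldown (y axis, with standard error) against exonic length in bases (x axis, log scale) for the 10 genes (red circles) and 9 further selenoprotein genes (blue squares). Grey bands and lines are the quartiles and medians of all genes tested in 4 length classes, and SELM at -3.84 and SELK at 2.46 lie outside the band of their class on opposite sides.

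The genes whose levels followed SELM most closely over the 12 libraries were NDUFB11, TMEM147, TCEB2, CLPP and SEC11C. Their Pearson correlations of log2 values with SELM were 0.997, 0.996, 0.996, 0.996 and 0.996, and 1801 of 10192 genes compared reached 0.9 or more. All genes share the same 12 libraries, so these are descriptions, and SELM had its 3 lowest values in TNIP2 Pulldown. SEC11C, a subunit of the signal peptidase, had 77, 57 and 88 normalized counts in TNIP2 Pulldown against 916, 849 and 606 in Control Pulldown. NDUFB11, a subunit of respiratory complex I, had 309, 219 and 325 against 1687, 1506 and 1432. Among the 10 genes, correlations with SELM were 0.97 for SEPW1, 0.96 for SEP15, 0.94 for SELT, 0.93 for GPX1 and 0.86 for TXNRD2, 0.64 for TXNRD1, 0.60 for GPX4, -0.39 for SEPHS2 and -0.95 for SELK.

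Genes for the incorporation of selenocysteine were listed beside the selenoproteins. Of the 13, 12 were tested, and 5 were higher and 2 lower in TNIP2 Pulldown over Control Pulldown, with a median log2 fold change of 0.27. Among all genes 30.6% were higher and 28.7% lower (59.4% in either direction), with a median of 0.03. RPL30, a ribosomal protein that also binds the SECIS hairpin, had 1653, 1667 and 1684 normalized counts against 9058, 9118 and 9948, which is -2.49 on the log2 scale (SE 0.14, adjusted p = 8.0e-09). EIF4A3, a core protein of the exon junction complex that can block SECISBP2 from some messages, had 4274, 3303 and 5056 against 1673, 1570 and 1548 (1.38, SE 0.17, adjusted p = 5.8e-06). SECISBP2L, a relative of SECISBP2, had 1153, 1282 and 783 against 338, 369 and 548 (1.36, SE 0.21, adjusted p = 6.5e-05).

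SECISBP2, named after its values were seen, had 2562, 2683 and 1965 normalized counts in TNIP2 Pulldown against 856, 1025 and 1081 in Control Pulldown (1.28, SE 0.15, adjusted p = 5.4e-06). It did not overlap, and neither did the 3 genes before it. Of all genes, 29.5% lay wholly below Control Pulldown and 31.5% wholly above. EEFSEC, also named after its values were seen, stood at -0.46 on the log2 scale (SE 0.30, adjusted p = 0.20), with 75, 80 and 178 against 180, 131 and 119. Without TNIP2 Pulldown replicate 3, the library with 178, it was called lower, as it was under centring on ribosomal protein genes.

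Of 6 relatives that use cysteine in place of selenocysteine, 4 were tested, with 2 lower and 1 higher, beside 28.7% lower and 30.6% higher among all genes (59.4% in either direction). Their median log2 fold change was -0.55, against 0.03 for all genes. GPX8 (-1.19, SE 0.24, adjusted p = 7.1e-04) and MSRB2 (-0.89, SE 0.17, adjusted p = 3.8e-04) were lower. MSRA, at only 65, 63 and 61 normalized counts against 37, 35 and 5, was higher (1.67, SE 0.55, adjusted p = 0.016), a call that ended without Control Pulldown replicate 3 and under centring on ribosomal protein genes.

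A list of 22 partner genes of the thioredoxin and glutathione systems also held the antioxidant enzymes SOD1, SOD2 and CAT, and all 22 were tested. Of these, 13 were lower and 5 higher, with a median log2 fold change of -0.64. Of all genes 28.7% were lower and 30.6% higher (59.4% in either direction), and their median was 0.03. PRDX5, a peroxiredoxin, had 203, 170 and 201 normalized counts against 1509, 1488 and 1434 (-2.95, SE 0.16, adjusted p = 6.6e-09). PRDX6, also a peroxiredoxin, had 692, 438 and 506 against 3683, 3341 and 3503 (-2.71, SE 0.16, adjusted p = 1.4e-08). TXN, the thioredoxin that TXNRD1 reduces, had 989, 782 and 797 against 3634, 4015 and 3412 (-2.11, SE 0.14, adjusted p = 3.2e-08), while TXNRD1 did not pass. All 3 genes lay below every Control Pulldown library, as did 29.5% of all genes tested. SOD1, the cytosolic superoxide dismutase, named after its values were seen, had 18096, 10945 and 10047 against 3921, 3882 and 3526 (1.74, SE 0.19, adjusted p = 2.3e-06).

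**Figure D5:**
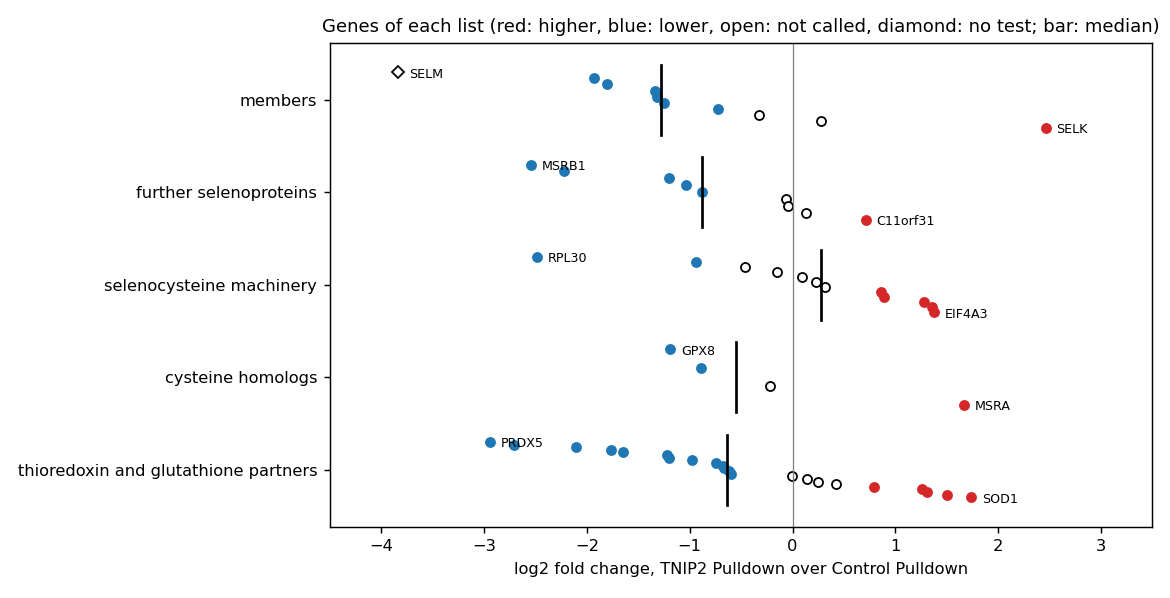
Log2 fold change of TNIP2 Pulldown over Control Pulldown (x axis) of each tested gene in 5 lists (rows), in red where called higher, blue where called lower, open where not called and as a diamond where not tested; the black bar is the list median. Each list holds genes on both sides of 0, from SELM at -3.84 to SELK at 2.46 in the first row.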

How the data were processed

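The files deposited by the authors hold normalized counts, which are whole-number scores rather than raw counts, and FPKM values. Per the submitters' processing notes, the tools include TopHat2 2.0.14 and DESeq2 1.6.3, with build hg19. Which counter, strand setting or annotation was used is not given in the sources used here. Column letter C matches Control, and the letter F was given to TNIP2 by elimination. Low FPKM values were whole multiples of a step in each library, which gave recovered reads and exonic lengths. Between 11 and 74 values under 100 reads were checked in each library, and every one came out whole within 0.1 reads, and 12 of 12 known steps were found on simulated data.

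A gene was tested when 3 libraries or more held at least 10 normalized counts of it. Values entered as log2 of the normalized count plus 1, a scale that makes changes of low genes look smaller. One model over all 12 libraries was fitted by limma (version 3.58.1, in R 4.3.3), using lmFit and then eBayes with a mean trend. Tests were two-sided, adjusted by Benjamini-Hochberg over all genes tested and called at adjusted p under 0.05. The fit was also run on simulated data with far fewer changed genes and no replicate effect. That setting cannot show how the fit performs on these libraries. Replicates differed beyond sampling noise in every group, so none was merged. Same-numbered TNIP2 Input and TNIP2 Pulldown libraries deviated together (correlations of 0.37, 0.46 and 0.50). Same-numbered Control Input and Control Pulldown libraries had 0.08, 0.07 and 0.08. Libraries of different number were not compared. Both TNIP2 libraries numbered 3 stood apart on the second principal component, which by itself can raise all 3 TNIP2 correlations. Whether the numbers pair the libraries is therefore not settled. The members and lists were chosen with earlier results of these data known. Named genes are the 10 members, the further selenoprotein genes, up to 3 called genes per other list with the largest change over Control Pulldown, and the 5 genes most correlated with SELM among those with a mean of 100 or more and a gene name. Names were matched to RefSeq (GRCh38.p14) for overlaps only.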

Additional observations from a re-analysis of the deposited data

Results flagged for a closer look

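Of the 9 genes other than SELM, 7 passed limma's test of the difference between the constructs in enrichment of purified RNA over extract, where 42.8% of all genes passed. The difference on the log2 scale was 2.40 for SELK, -1.98 for SEPW1, -1.81 for SEP15, -1.48 for GPX1, -1.29 for SELT, -1.22 for TXNRD2 and -0.77 for GPX4. The calls of TXNRD2 and GPX4 ended under 10 and 7 alternatives. SELM's difference was -3.88, with all 3 Control Pulldown libraries above the mean of their extract and all 3 TNIP2 Pulldown libraries below theirs. It was not tested, because these values chose the family, and it supports nothing here.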

How the results depend on the processing

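The counts of members called in each of the 5 comparisons stayed within 1.5 times under all 24 alternatives that gave a value. The medians by length stayed within their spread. Ratios in FPKM did so too, but up to rounding the FPKM of a gene is its normalized count times a constant. Their agreement was therefore fixed in advance, as was most of that under the alternative that used FPKM plus 0.1. Of the values for single members, 1085 kept direction and call, 17 lost a call, 11 gained one, 3 moved with no test (SELM under centring on ribosomal protein genes) and 34 changed sign, all of these uncalled. With the replicate number as a block in all 12 libraries, SELK over TNIP2 Input remained at 2.48, and the block changed no call of a member, also in the added fit of only the 6 TNIP2 libraries. Sign changes under centring on ribosomal protein genes were 0.033 for SELT, 0.0048 for SEP15 and 0.037 for TXNRD1 in Control Pulldown over Control Input, -0.20 for SEPHS2 over Control Pulldown, and 0.11 for SELT, 0.037 for TXNRD1 and 0.13 for TXNRD2 in the extracts. Without both TNIP2 libraries numbered 3, an alternative chosen after seeing the data, they were -0.36 for SEPHS2 over TNIP2 Input and, in the extracts, -0.0462 for SELM, -0.17 for SELK, -0.25 for SEPW1, -0.071 for GPX1 and -0.081 for GPX4. With 1 library left out at a time, Control Pulldown over Control Input ran from -0.17 to 0.018 for SEP15 and from -0.082 to 0.21 for TXNRD2. SEPHS2 ran from -0.089 to 0.91 over TNIP2 Input and from -0.80 to 0.20 in the difference of enrichments. The extracts ran from -0.068 to 0.19 for SELM, -0.24 to 0.12 for SELT, -0.17 to 0.25 for SELK, -0.066 to 0.086 for SEP15, -0.25 to 0.28 for SEPW1, -0.071 to 0.33 for GPX1, -0.081 to 0.13 for GPX4 and -0.19 to 0.11 for TXNRD2. The cause of these changes was not tested. Control Pulldown, the shallowest group, had 184 to 342 recovered reads of SELM and TNIP2 Pulldown had 38 to 51.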
